A study of Mus musculus with 13 samples.

Results

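The genes described here are 7 members of the mouse Cyp2c family, Cyp2c29, Cyp2c37, Cyp2c38, Cyp2c39, Cyp2c50, Cyp2c54 and Cyp2c70, found by gene symbol among the 27141 genes of the deposited count and FPKM tables. They were chosen by their RNA levels in these same libraries, across the groups, so their own values are given as a description, with no p-value. RNA had been sequenced from damaged hepatocytes (dHeps), hepatocytes isolated from wild-type C57BL/6-background mice injured with carbon tetrachloride (CCl4), after 16 days of culture. The medium of all groups was serum-free Hepatocyte Maintenance Medium (Lonza). The 7 groups were the solvent DMSO, a cocktail of 5 compounds (5C) and 5C lacking 1 compound each: GSK429286A, which inhibits ROCK (5C-G), CID755673, which inhibits protein kinase D (5C-C), ETC-1002, which activates AMPK (5C-E), forskolin, which activates adenylate cyclase (5C-F), or salidroside, a plant glycoside (5C-S). All groups share the CCl4 injury and the culture, and no uninjured hepatocytes were among them. There were 2 libraries per group, called A and B, except 1 for 5C-S, with total counts of 30195867 to 45491932.

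CYP2C proteins are cytochrome P450 monooxygenases of the endoplasmic reticulum, which receive electrons from P450 oxidoreductase and oxidise drugs, steroids and fatty acids. Their genes form a cluster of near copies and are transcribed mainly in hepatocytes, under HNF4A, C/EBP factors and the xenobiotic receptors CAR and PXR, and their transcripts decline when hepatocytes lose their differentiated state in culture. Cyp2c29 is an abundant drug-metabolising enzyme and arachidonic acid epoxygenase of mouse liver. Cyp2c38 is another arachidonic acid epoxygenase, and Cyp2c39 also hydroxylates retinoic acid. Cyp2c37, Cyp2c50 and Cyp2c54 oxidise arachidonic and linoleic acid, and Cyp2c70 makes muricholic acids, the typical bile acids of mice.

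All 7 genes lie on chromosome 19 of GRCm39, each with 9 exons in its canonical transcript: Cyp2c29 at chr19:39257849-39319157 on the plus strand, Cyp2c38 at chr19:39378000-39451547 on the minus strand, Cyp2c39 at chr19:39499306-39558011 on the plus strand, Cyp2c37 at chr19:39980865-40000688 on the plus strand, Cyp2c54 at chr19:40025117-40062282 on the minus strand, Cyp2c50 at chr19:40078085-40102430 on the plus strand and Cyp2c70 at chr19:40141797-40175777 on the minus strand. By coding sequence they fell into 3 sets. Cyp2c37, Cyp2c50 and Cyp2c54 shared 95.1 to 96.1% of aligned positions. Cyp2c29, Cyp2c38 and Cyp2c39 shared 89.1 to 94.2%. Cyp2c70 shared 67.9 to 68.4% with the others. The same sets appeared in the 250 bases upstream of the canonical starts, where local alignments matched 92.1% of 191 columns for Cyp2c37 and Cyp2c50, 91.0% of 178 for Cyp2c50 and Cyp2c54, 83.9% of 211 for Cyp2c38 and Cyp2c39 and 74.3% of 245 for Cyp2c29 and Cyp2c38.

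The 120 bases before each canonical start are shown because genes with like upstream sequence did not all have like levels, as described further on. Sequences were read from the GRCm39 genome and run 5′ to 3′ on the gene's strand. Capitals mark matches, on either strand, to AGGTCA (nuclear receptors), CAAAGTCCA (HNF4), AGTTCA (also nuclear receptors), TGTTTAC (FOXA), TTGCNNAA (C/EBP), TTATGNAA (PAR bZIP factors) and TATAAA (the general factor TBP). The bases nearest the start of Cyp2c70 lie in an exon of another annotated transcript of the gene.
Cyp2c29, chr19:39275398-39275517, plus strand: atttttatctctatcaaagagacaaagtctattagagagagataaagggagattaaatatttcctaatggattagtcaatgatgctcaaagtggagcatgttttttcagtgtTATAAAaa
Cyp2c38, chr19:39451548-39451667, minus strand: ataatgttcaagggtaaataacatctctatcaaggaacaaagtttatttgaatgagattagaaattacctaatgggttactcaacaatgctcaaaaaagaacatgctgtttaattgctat
Cyp2c39, chr19:39499186-39499305, plus strand: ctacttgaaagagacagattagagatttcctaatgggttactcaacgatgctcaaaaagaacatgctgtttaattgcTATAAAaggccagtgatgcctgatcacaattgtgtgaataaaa
Cyp2c37, chr19:39980745-39980864, plus strand: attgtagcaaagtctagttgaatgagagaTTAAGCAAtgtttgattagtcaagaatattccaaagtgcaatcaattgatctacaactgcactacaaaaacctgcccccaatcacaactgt
Cyp2c50, chr19:40077965-40078084, plus strand: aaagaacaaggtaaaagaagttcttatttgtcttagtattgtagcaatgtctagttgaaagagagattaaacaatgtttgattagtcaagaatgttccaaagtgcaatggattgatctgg
Cyp2c54, chr19:40062283-40062402, minus strand: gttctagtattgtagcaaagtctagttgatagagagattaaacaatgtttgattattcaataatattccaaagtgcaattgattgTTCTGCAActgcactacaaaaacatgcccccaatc
Cyp2c70, chr19:40175732-40175851, minus strand: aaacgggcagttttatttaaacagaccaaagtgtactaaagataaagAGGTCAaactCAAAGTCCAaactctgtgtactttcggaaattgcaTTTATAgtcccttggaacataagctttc

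Over the full 250-base windows, CAAAGTCCA was found in Cyp2c70 alone of the 7 and in 0.4% of 21770 promoters of the same length. AGGTCA was found in Cyp2c29 and Cyp2c70 (13.1% of promoters), TGTTTAC in Cyp2c38 and Cyp2c39 (2.7%), TTGCNNAA in Cyp2c37 and Cyp2c54 (9.3%) and TATAAA in Cyp2c29, Cyp2c39 and Cyp2c70 (11.9%). AGTTCA (12.1%) and TTATGNAA (3.0%) matched none of the 7. A match is a string of letters, not a measured binding site. The windows end at the annotated starts, which are offset between relatives. The alignment of Cyp2c38 and Cyp2c39 ended at -1 in Cyp2c38 and at -41 in Cyp2c39, inside the TATAAA that begins at -43. A missing match can therefore reflect where a start is annotated.

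Reads shared between near copies bear on these counts. Of all 150-base windows of the canonical transcript, the length of 1 read, none of Cyp2c29, Cyp2c38, Cyp2c39 or Cyp2c70 occurred in a transcript of another gene, against 0.3% for Cyp2c37, 1.7% for Cyp2c54 and 3.1% for Cyp2c50. At 50 bases the shares were 30.2% for Cyp2c37, 29.3% for Cyp2c50, 15.0% for Cyp2c54, 7.6% for Cyp2c39, 7.4% for Cyp2c38, 2.1% for Cyp2c29 and 0.0% for Cyp2c70. Counts of Cyp2c37, Cyp2c50 and Cyp2c54 are therefore the less certain ones. Cyp2c29 also overlaps the pseudogene Cyp2c53-ps on the same strand, which had at most 8 counts in any library.

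Hepatocyte identity was checked by Alb (albumin), which ran from 2120 to 18300 FPKM over the 13 libraries, and by 8 of 9 listed hepatocyte reference genes, none of them at 0 in any library. Their summed FPKM was highest in 5C-F (17200 to 21600), then DMSO (10900 to 12100), 5C (10900 in both libraries), 5C-G (6850 to 8170), 5C-S (7090), 5C-C (4650 to 5050) and 5C-E (3130 to 3640). Transcripts of macrophages were present too. The summed FPKM of 10 macrophage markers was highest in 5C-G (4790 to 6740) and DMSO (4820 to 4860), followed by 5C-F (1610 to 1930), 5C-C (948 to 1600), 5C-E (682 to 800), 5C-S (613) and 5C (512 to 591). Of these 10, 1 was at 0 in any library (Clec4f, a Kupffer cell marker, in 5C A, 5C-E B and 5C-S). In 5C, 9 were called lower than in DMSO, beside 2.89% of all genes. Against 5C, 9 were called higher in 5C-G (7.47% of all genes), 8 in 5C-F (2.69%), 4 in 5C-C (9.65%) and 0 in 5C-E (0.654%). The summed FPKM of stellate cell and fibroblast markers ran from 900 to 2340 over the libraries, that of cholangiocyte markers from 1460 to 3420 and that of endothelial markers from 9.69 to 89.7, with Pecam1 and Cdh5 at 0 in several libraries. The part of these cells in the Cyp2c levels was not tested, and fewer hepatocytes cannot be told apart from less Cyp2c RNA per hepatocyte in bulk RNA. Levels within a library relative to Alb are given below for that reason.

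Cyp2c29 reached the highest level of the 7. It stood at 1.67 and 1.14 FPKM in DMSO A and B and at 170.0 and 165 in 5C. Of the removals, 5C-F held 395 and 270 FPKM, 5C-S 178, 5C-E 50.8 and 30.5, 5C-C 30.3 and 28.4, and 5C-G 4.44 and 4.82. The libraries of no 2 groups overlapped, and every group with at least 4 of the compounds lay above DMSO. Group means in FPKM were 1.41 ± 0.373 (SD, n = 2) in DMSO and 167 ± 3.64 (SD, n = 2) in 5C.

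Its close relative Cyp2c38 behaved differently. It stood at 2.11 and 0.962 FPKM in DMSO and 4.96 and 4.38 in 5C. The removals had 1.29 and 1.55 FPKM (5C-F), 1.05 (5C-S), 0.607 and 0.258 (5C-G), 0.191 and 0.107 (5C-E) and 0.0115 and 0.0459 (5C-C). 5C held the highest libraries and 5C-C the lowest, with 1 and 6 counts. The libraries of DMSO and 5C-F overlapped, and those of 5C-G, 5C-C and 5C-E lay below every DMSO library.

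Cyp2c39 had the lowest maximum of the 7, with 0.271 and 0.424 FPKM in DMSO and 0.738 and 0.358 in 5C. The removals had 0.121 and 0.101 FPKM (5C-E), 0.0967 (5C-S), 0.0284 and 0.131 (5C-F), 0.0684 and 0 (5C-G) and 0 in both libraries (5C-C). No library held more than 45 of its counts. DMSO and 5C overlapped and were the highest, and below them the ranges of 5C-F, 5C-G and 5C-C each reached that of the next higher group.

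**Figure D1:**
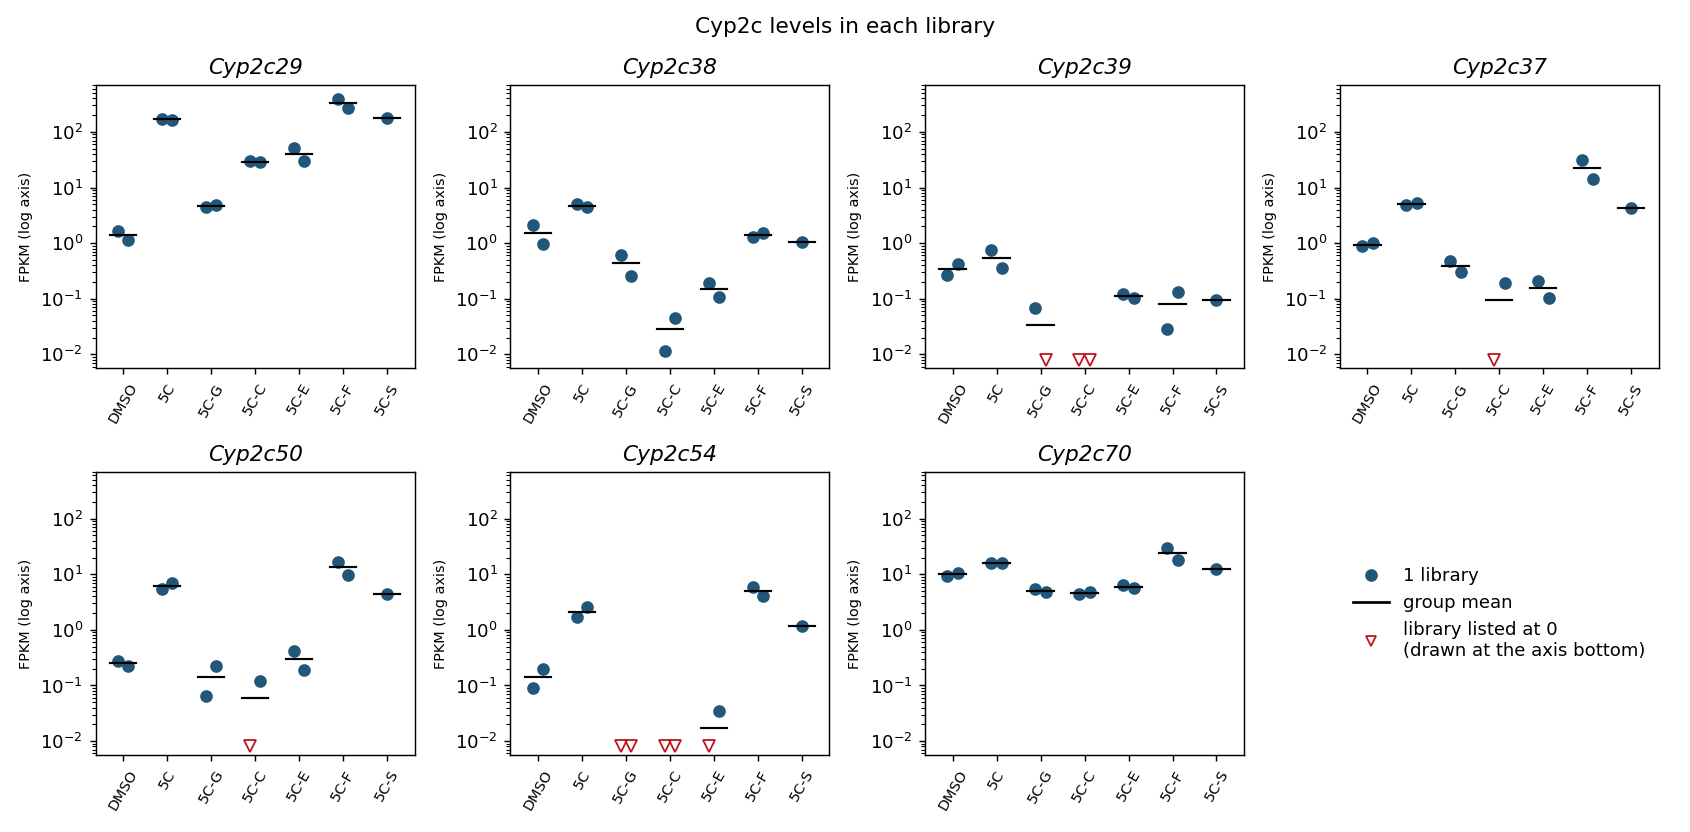
FPKM (log axis) of each gene in each of the 13 libraries, with bars at group means and open triangles for libraries listed at 0, which are drawn at the bottom of the axis. Cyp2c29, Cyp2c37, Cyp2c50, Cyp2c54 and Cyp2c70 were highest in 5C-F, and Cyp2c38 and Cyp2c39 in 5C.

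Cyp2c37 stood at 0.899 and 0.985 FPKM in DMSO and 4.79 and 5.26 in 5C. The removals had 31.3 and 14.2 FPKM (5C-F), 4.34 (5C-S), 0.477 and 0.3 (5C-G), 0.211 and 0.101 (5C-E) and 0 and 0.192 (5C-C). The libraries of 5C-F exceeded all others, although they differed from each other by more than the 5C libraries did, and 5C-G, 5C-C and 5C-E all lay below DMSO.

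Cyp2c50 also peaked in 5C-F, at 16.7 and 9.82 FPKM, and had 5.53 and 6.84 in 5C, 4.39 in 5C-S, 0.414 and 0.189 in 5C-E, 0.281 and 0.22 in DMSO, 0.0639 and 0.225 in 5C-G and 0 and 0.12 in 5C-C. The last 4 of these groups overlapped, each with the next, and the others stood apart. Cyp2c54 was listed at 0 in 5C-G and 5C-C and in 1 of the 5C-E libraries, the other having 0.0343 FPKM from 2 counts. It stood at 0.0918 and 0.198 FPKM in DMSO, 1.67 and 2.55 in 5C, 5.97 and 4.02 in 5C-F and 1.18 in 5C-S.

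Cyp2c70, the bile acid hydroxylase, varied least. Its libraries stood at 9.46 and 10.6 FPKM in DMSO and 15.8 and 16.1 in 5C. The removals had 29.1 and 18.3 FPKM (5C-F), 12.5 (5C-S), 6.36 and 5.6 (5C-E), 5.43 and 4.78 (5C-G) and 4.34 and 4.81 (5C-C). The groups did not overlap, except 5C-G with 5C-C.

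The comparison of 5C with DMSO asks what the whole cocktail changes. Cyp2c29 was 113-fold higher in 5C (log2 fold change 6.81, SE 0.32), Cyp2c50 23.3-fold (4.54, SE 0.59), Cyp2c54 13.9-fold (3.80, SE 0.65) and Cyp2c37 5.07-fold (2.34, SE 0.50). These 4 of 7 were called higher, meaning an edgeR adjusted p under 0.05 and a log2 fold change beyond 1, beside 1.66% of 19884 tested genes called higher, and none was called lower, beside 2.89%. Because the genes were chosen with this contrast known, nothing is read from the count. Without DMSO A or without DMSO B, Cyp2c37 lost its call and 3 remained. The values of Cyp2c38 (1.52, SE 0.45), Cyp2c70 (0.60, SE 0.23) and Cyp2c39 (0.58, SE 1.35) were not called. Cyp2c38 was called higher by DESeq2 (1.52), by limma (1.2), with every gene with any count (1.53) and with the compared libraries only (1.51). The median over the 7 was 2.34, and 0.01 over all genes tested.

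Next, each removal was compared with 5C, using the same 5C libraries each time, to ask which changes need the compound left out. Without the ROCK inhibitor, Cyp2c50 was 37.4-fold lower (log2 fold change -5.22, SE 0.62), Cyp2c29 32.8-fold (-5.03, SE 0.29), Cyp2c37 11.9-fold (-3.57, SE 0.54), Cyp2c38 10.1-fold (-3.33, SE 0.50) and Cyp2c70 2.85-fold (-1.51, SE 0.24). Cyp2c54, at 0 in both libraries, was at least 39.3-fold lower when set against a floor of 3 counts per library. That bound is too high if both reads of a fragment were counted. These 6 of 7 were called lower, beside 5.64% of all genes (7.47% were called higher), and Cyp2c39 (-3.88, SE 1.59) was not called. The value of Cyp2c39 rests on 4 counts in 5C-G A. Without that library no count remains and the gene was called lower, as it was by DESeq2 (-3.97).

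Without the protein kinase D inhibitor all 7 were called lower, beside 10.5% of all genes (9.65% were called higher). Here Cyp2c38 was 128-fold lower (log2 fold change -6.99, SE 0.65), Cyp2c50 78.1-fold (-6.29, SE 0.67) and Cyp2c37 39.7-fold (-5.31, SE 0.63), while Cyp2c29 was 5.08-fold lower (-2.35, SE 0.25) and Cyp2c70 3.10-fold (-1.63, SE 0.24). In 5C-C, Cyp2c37 and Cyp2c50 each had 0 counts in library A and 16 in library B, so their folds rest on 5C-C B. That of Cyp2c38 rests on 1 count in library A and 6 in library B, at 0.0115 and 0.0459 FPKM. Against the same floor, Cyp2c54 was at least 34.7-fold and Cyp2c39 at least 9.11-fold lower, both libraries being at 0, with the same limit on the bounds. Cyp2c39 lost its call without 5C-C B and with limma (-0.62). The median log2 fold change of the 7 was -6.29 as fitted and -5.12 with these bounds.

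Without the AMPK activator 6 were called lower, beside 1.31% of all genes (0.654% were called higher). Cyp2c37 was 33.0-fold lower (log2 fold change -5.05, SE 0.61), Cyp2c38 32.4-fold (-5.02, SE 0.55), Cyp2c50 21.3-fold (-4.41, SE 0.58), Cyp2c29 4.32-fold (-2.11, SE 0.25) and Cyp2c70 2.80-fold (-1.48, SE 0.24). Cyp2c54 had 2 counts in all against 240 in 5C, a 135-fold difference. Its 95% interval of 37.1 to 1120 takes each count as independent and covers counting error only, and it is too narrow if both reads of a fragment were counted. Cyp2c39 (-2.35, SE 1.43) was not called. Without 5C-E B, Cyp2c70 lost its call and 5 remained.

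**Figure D2:**
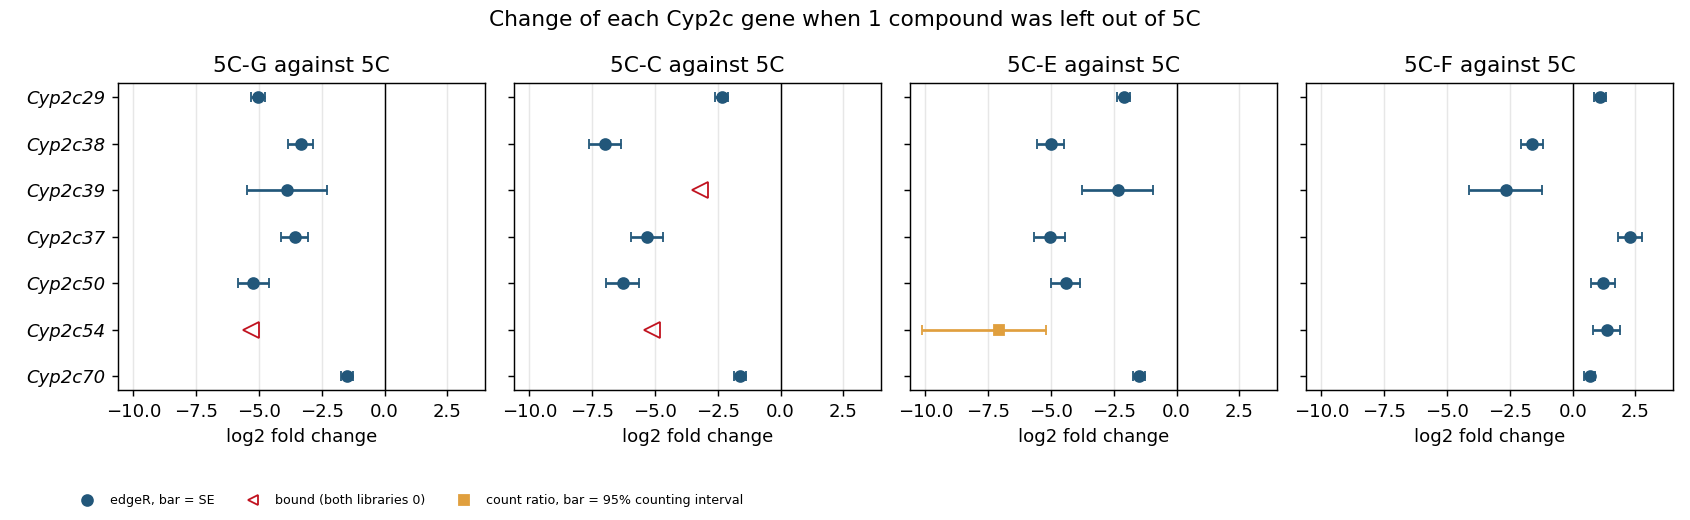
Log2 fold change of each gene in 4 removals against 5C, as edgeR values with SE (circles), as bounds where both libraries had 0 counts (open triangles, the true value lying at or left of them) and as a count ratio with a 95% interval that takes each count as independent (square). Values lie left of 0 in 5C-G, 5C-C and 5C-E, and on both sides of it in 5C-F.

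Leaving out forskolin split the family. Cyp2c37 was 4.91-fold higher than in 5C (log2 fold change 2.29, SE 0.47) and Cyp2c29 2.14-fold higher (1.10, SE 0.24), whereas Cyp2c38 was 3.08-fold lower (-1.62, SE 0.45). Cyp2c54 (1.35, SE 0.54), Cyp2c50 (1.21, SE 0.48), Cyp2c70 (0.68, SE 0.23) and Cyp2c39 (-2.66, SE 1.45) were not called. The 2 higher calls stand beside 2.69% of all genes and the lower one beside 2.15% (4.84% in either direction), and none of the 3 was made without 5C A, without 5C B or without 5C-F A. Without 5C-F A the log2 fold change of Cyp2c37 was 1.56. Without 5C-F B, Cyp2c38 lost its call and Cyp2c70 gained one (1.01). With GC content and transcript length in the fit, Cyp2c37 alone was called, and Cyp2c29 lost its call with total counts in place of TMM (0.99) and with limma (0.96). Cyp2c50 and Cyp2c54 were also called higher with the compared libraries only, and Cyp2c50 with every gene with any count.

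In the single 5C-S library, which allows no test, Cyp2c29 differed from the 5C mean by 0.07 on the log2 CPM scale, Cyp2c37 by -0.23, Cyp2c70 by -0.37, Cyp2c50 by -0.50 and Cyp2c54 by -0.80. Cyp2c38 (-2.14) and Cyp2c39 (-2.10, from 6 counts) were past 1 on that scale, beside 7.35% of all genes in that direction, 8.1% in the other and 15.4% in all. Cyp2c38 was called lower than in 5C in each of the 4 removals tested, and Cyp2c39 in 5C-C alone.

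Against DMSO, whose 2 libraries all these values share, Cyp2c29 stayed higher in each removal, by 7.91 (SE 0.33) on the log2 scale in 5C-F, 6.90 in 5C-S, 4.70 (SE 0.29) in 5C-E, 4.47 (SE 0.29) in 5C-C and 1.78 (SE 0.27) in 5C-G. Cyp2c38 was at -5.47 (SE 0.63) in 5C-C, -3.49 (SE 0.53) in 5C-E and -1.81 (SE 0.48) in 5C-G, all called lower. Cyp2c37 was at 4.64 (SE 0.53) in 5C-F, -2.71 (SE 0.62) in 5C-E, -2.97 (SE 0.64) in 5C-C and -1.23 (SE 0.55, not called) in 5C-G. Its 5C-E call was lost without 5C-E B (-2.29) and with limma (-0.75), and its 5C-C call with the compared libraries only (-3.03) and with limma (-0.83). Cyp2c50 in 5C-C was not called (-1.75, SE 0.74), but was called lower without 5C-C B, where it had no counts left. Cyp2c70 was at 1.27 (SE 0.23) in 5C-F and -1.04 (SE 0.24) in 5C-C, the first call lost without 5C-F A (0.85) or with GC content and length in the fit, and the second without DMSO B or 5C-C A or with limma (-0.98). Cyp2c50 (5.75, SE 0.61) and Cyp2c54 (5.14, SE 0.67) were higher in 5C-F. Where both libraries were at 0, Cyp2c54 was at least 2.83-fold lower than in DMSO in 5C-G and at least 2.5-fold in 5C-C, and Cyp2c39 at least 6.1-fold in 5C-C. These bounds, from the floor of 3 counts per library, are too high if both reads of a fragment were counted. In 5C-G 1 gene was called higher and 2 lower, beside 3.11% and 2.72% of all genes (5.83% in either direction), but Cyp2c29 was the single call without DMSO A or without 5C-G B. In 5C-C the counts were 1 higher and 5 lower (10.4% and 11.7% of all genes, 22.1% together). Of these 6 calls, 2 remained with limma and 4 with the compared libraries only, and Cyp2c39 lost its call without 5C-C B. In 5C-E the counts were 1 and 2 (2.41% and 3.68%, 6.09% together), and in 5C-F 5 and 0 (3.18% and 4.22%, 7.4% together). For 5C-S, 4 genes were past 1 upward and 1 downward (11.4% and 9.96%, 21.4% together).

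Set against Alb in the same library, Cyp2c29 amounted to 0.172 and 0.133 per 1000 of Alb FPKM in DMSO and 18.0 and 17.5 in 5C. It amounted to 34.6 in 5C-S, 21.6 and 20.3 in 5C-F, 18.7 and 14.4 in 5C-E, 8.84 and 11.1 in 5C-C and 1.07 and 1.08 in 5C-G. The 5C-E libraries thus lay on both sides of 5C, while Alb itself was lower in 5C-E than in 5C (log2 fold change -2.03, SE 0.20, edgeR adjusted p = 9.44e-06). Alb also differed from 5C in 5C-C (-1.5, SE 0.19), 5C-G (-0.99, SE 0.19) and 5C-F (0.85, SE 0.19). The relative level of Cyp2c29 depended on the denominator. Relative to the geometric mean of the hepatocyte reference genes, the log2 difference of Cyp2c29 between 5C-E and 5C was -1.16, against -0.10 relative to Alb. That of Cyp2c38 was -3.04 relative to Alb and -4.10 relative to the reference genes. For Cyp2c70 the sign turned, from 0.56 relative to Alb to -0.52 relative to the reference genes. In 5C-C, Cyp2c70 per 1000 of Alb FPKM lay on both sides of 5C, at 1.26 and 1.88 against 1.67 and 1.71. Its log2 difference from 5C there was -0.11 relative to Alb and -1.15 relative to the reference genes. Between 5C-F and 5C, the log2 difference of Cyp2c29 was 0.24 relative to Alb and 0.14 relative to the reference genes.

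The make-up of the Cyp2c pool, the summed FPKM of all Cyp2c genes found, changed with the cocktail. In DMSO the pool summed to 31.7 and 30.2 FPKM, of which Cyp2c68, another family member, made up 42.8 and 42.6%, Cyp2c70 29.8 and 35.0% and Cyp2c29 5.26 and 3.78%. In 5C it summed to 231 and 225 FPKM, of which Cyp2c29 made up 73.6 and 73.3%. Cyp2c29 also led the pool in 5C-C (70.2 and 67.4%), 5C-E (76.6 and 70.1%), 5C-F (78.5 and 81.0%) and 5C-S (81.9%), though the pools of 5C-C and 5C-E summed to 42.2 to 66.4 FPKM. In 5C-G its share was 22.1 and 23.5%, that of Cyp2c68 33.1 and 42.6% and that of Cyp2c70 27.1 and 23.4%. The authors' FPKM imply a gene length of 3066 bases for Cyp2c29, longer than its canonical transcript of 1783 bases. With canonical lengths its mean share was 7.24% in DMSO and 81.6% in 5C. In 5C-G canonical lengths gave 31.9 and 33.7% for Cyp2c29 and 26.9 and 34.4% for Cyp2c68, so which of them held more depends on the length used.

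**Figure D3:**
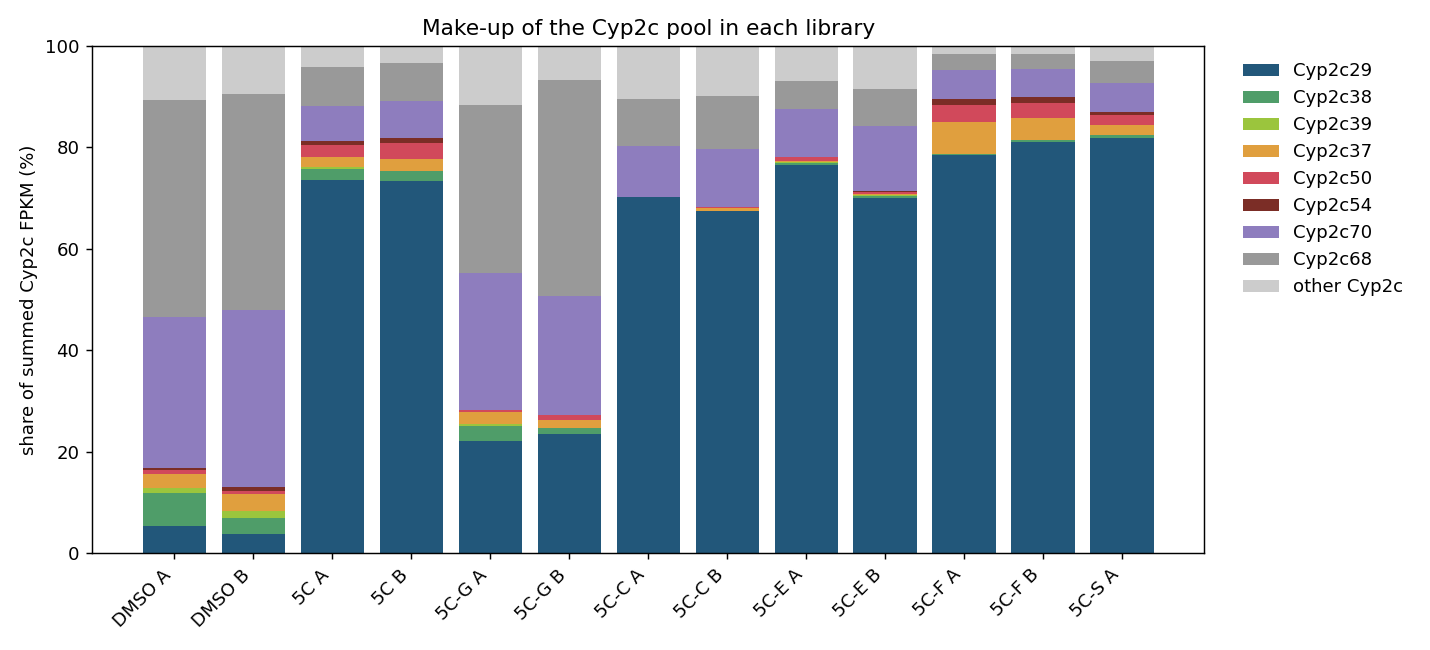
Share of the summed Cyp2c FPKM (%, stacked to 100) held by each gene in each library. Cyp2c68 and Cyp2c70 fill most of the DMSO bars, and Cyp2c29 fills 67.4 to 81.9% of every bar outside DMSO and 5C-G.

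Across the 13 libraries, which share the 7 conditions and so are not independent points, Pearson's r of log2 CPM followed the sequence sets in part. It was 0.94 for Cyp2c37 and Cyp2c50, 0.93 for Cyp2c37 and Cyp2c54 and for Cyp2c50 and Cyp2c54, and 0.76 for Cyp2c38 and Cyp2c39. Cyp2c70, the most distant in sequence, had 0.96 with Cyp2c37 and 0.97 with Cyp2c54. Cyp2c29 had 0.19 with Cyp2c38 and -0.02 with Cyp2c39, its nearest relatives, and 0.72 with Cyp2c50. On log2(FPKM + 1) values, r of Cyp2c37 and Cyp2c38 was 0.62 instead of 0.83. Counts of Cyp2c37 ran from 31.8 to 280% of those of Cyp2c50 among libraries with at least 20 counts of the latter, so the pair did not keep a fixed ratio.

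**Figure D4:**
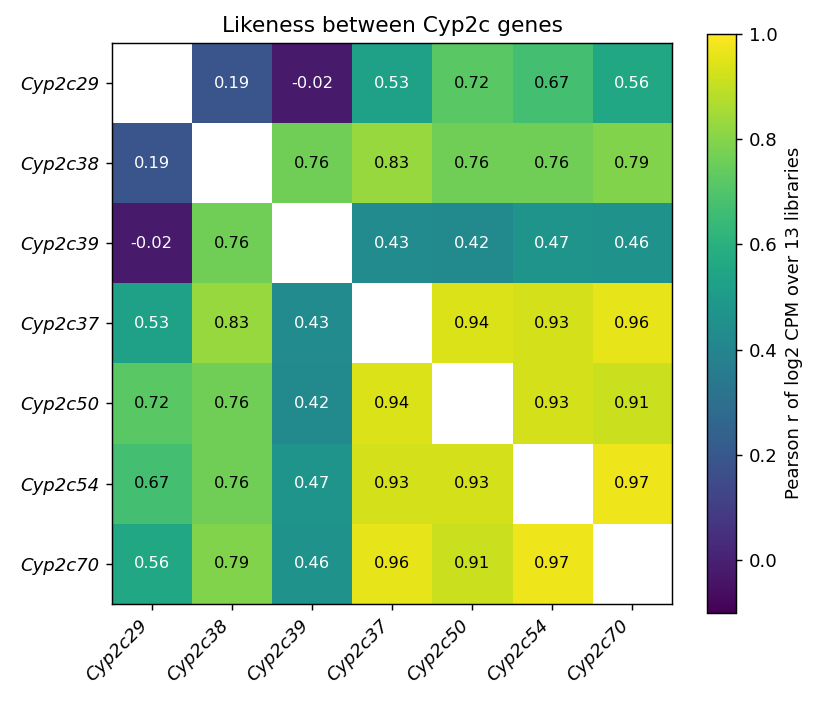
Pearson's r of log2 CPM over the 13 libraries for each pair of the 7 genes, with genes ordered by sequence set. Cyp2c37, Cyp2c50, Cyp2c54 and Cyp2c70 form a block of 0.91 to 0.97, and Cyp2c29 with Cyp2c39 has the lowest value, -0.02.

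Among 12939 other genes with a mean log2 CPM above 1, those most like the mean standardised profile of the 7 were Serpinc1 (antithrombin; r = 0.958), Slc35d1 (0.953), Lgals2 (0.95), Akr1c19 (0.946), Slc23a1 (0.943), Cyp2a12 (0.943), H2-Q1 (0.940), Glyctk (0.938), Pbld1 (0.937) and Mmd (0.933). By Spearman's rho 1 of these, Mmd (0.962), stayed among the nearest 10, so the order is not firm. Most like Cyp2c29 were Adamtsl2 (0.959), Cyp7b1 (0.935), the oxysterol hydroxylase, and Gm8834 (0.924). Most like Cyp2c38 were Pbld1 (0.973) and Itga8 (0.971).

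Other genes of the pathway, which did not define the list, were tested with edgeR, and adjusted p-values over all genes are given. Of 11 further Cyp2c symbols listed, 9 were found and 7 were tested, among them the pseudogene Cyp2c52-ps. In 5C against DMSO 1 rose, Cyp2c55 (log2 fold change 4.66, SE 0.45, adjusted p = 1.73e-06), beside 1.66% of all genes called higher (4.55% in either direction). In 5C-G against 5C 4 fell, beside 5.64% of all genes called lower (13.1% in either direction), namely Cyp2c55 (-2.29, SE 0.37, adjusted p = 0.000353), Cyp2c23, Cyp2c67 and Cyp2c68. In 5C-C and 5C-E, Cyp2c23 and Cyp2c68 fell (10.5% and 1.31% of all genes called lower, 20.2% and 1.96% in either direction). Cyp2c68 fell by 1.88 (SE 0.27, adjusted p = 8.97e-05) in 5C-C and by 2.41 (SE 0.27, adjusted p = 5.51e-05) in 5C-E. Cyp2c55 was at 0.01 (SE 0.34, adjusted p = 0.998) and -0.01 (SE 0.34, adjusted p = 1) there, and none of the 7 passed in 5C-F. Cyp2c67 and Cyp2c68 share 150-base windows with other Cyp2c genes, so their counts are uncertain. Cyp2c67 lost its call without 5C A or 5C-G B, Cyp2c68 in 5C-G without 5C A or 5C-G A or with GC content and length in the fit (-0.91), and Cyp2c23 in 5C-E without any 1 of the 4 libraries compared and in 5C-C without 5C A, 5C B or 5C-C B. With limma, Cyp2c23 was not called in 5C-G (-0.94) or in 5C-C (-0.81).

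The 5 electron donor genes, among them Por (P450 oxidoreductase), gave 0 calls in each of these 5 comparisons, beside 1.96 to 20.2% of all genes. Some passed the adjusted p but not the fold, all of them higher. Against 5C these were Por in 5C-C (0.79, SE 0.17, adjusted p = 0.00204) and 5C-F (0.72, SE 0.17, adjusted p = 0.0169), and Cyb5r3 in 5C-G (0.61, SE 0.18, adjusted p = 0.0178) and 5C-C (0.51, SE 0.18, adjusted p = 0.0346). Against DMSO it was Cyb5a in 5C (0.7, SE 0.17, adjusted p = 0.0152). Por stood between 41.0 and 83.5 FPKM over all libraries.

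Of 15 regulators of Cyp2c genes, 2 fell in 5C against DMSO and none rose, beside 2.89% and 1.66% of all genes. They were Cebpa, a liver C/EBP factor (-1.04, SE 0.19, adjusted p = 0.0016), and Dbp, a clock-controlled PAR bZIP factor (-1.11, SE 0.27, adjusted p = 0.0153), which lost its call without DMSO A or 5C B, with GC content and length in the fit (-0.97) and with limma (-0.76). Cebpa lost its call with total counts only (-0.97), with GC content and length in the fit (-0.88) and with limma (-0.93). Without the ROCK inhibitor 6 fell and 1 rose against 5C, beside 5.64% and 7.47% of all genes. Onecut1 (HNF6) fell by 4.15 (SE 0.79, adjusted p = 0.00124), Nr1i2 (PXR) by 1.32 (SE 0.24, adjusted p = 0.000955) and Hnf4a by 1.05 (SE 0.18, adjusted p = 0.000454). Onecut1 was scarce, with 2 and 4 counts in 5C-G and 55 and 58 in 5C. Ppara and Rora were also among those that fell, and Cebpb rose (1.34, SE 0.28, adjusted p = 0.00232, but 0.46 and not called with GC content and length in the fit). The call of Rora was lost without 5C-G B or with GC content and length in the fit (-0.13), that of Hnf4a without 5C A (-0.97), and that of Ppara without 5C A, 5C B or 5C-G B. With limma, Onecut1 (-0.48), Rora (-0.83) and Ppara (-0.73) were not called.

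The other removals were compared with 5C in the same way. In 5C-C, where 9.65% of all genes were called higher and 10.5% lower, 3 regulators rose, Nr0b2 (SHP, a repressor of nuclear receptors; 2.98, SE 0.68, adjusted p = 0.0026), Dbp (1.95, SE 0.27, adjusted p = 7.77e-05) and Cebpb, and 2 fell, Nr3c1 (glucocorticoid receptor; -1.48, SE 0.23, adjusted p = 0.000171) and Ppara, which lost its call without 5C-C B or with limma (-0.8). With GC content and length in the fit, Dbp (0.96), Cebpb (0.26) and Nr3c1 (-0.54) lost theirs. In 5C-E none passed, beside 1.96% of all genes called in either direction. In 5C-F, beside 2.69% of all genes called higher, Dbp rose (1.07, SE 0.27, adjusted p = 0.0187), but not without 5C A, 5C B or 5C-F B, nor with GC content and length in the fit (0.56). Nr1i3 (CAR) was scarce throughout, with 0 to 29 counts and at most 0.196 FPKM in any library.

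In the fatty acid epoxide pathway, 7 genes were tested, and 2 rose in 5C against DMSO, beside 1.66% of all genes. Cyp2j5, an epoxygenase of another P450 subfamily, rose by 1.64 (SE 0.27, adjusted p = 0.000583) in 5C, and Fabp1, the liver fatty acid binding protein, by 2.53 (SE 0.30, adjusted p = 1.67e-05). Both fell in 5C-C (10.5% of all genes), Cyp2j5 by 2.20 (SE 0.27, adjusted p = 3.78e-05) and Fabp1 fell by 2.12 (SE 0.29, adjusted p = 7.04e-05). Cyp2j5 alone fell in 5C-G, beside 5.64% of all genes (-1.42, SE 0.27, adjusted p = 0.00107). In 5C-E 3 fell, beside 1.31% of all genes, Fabp1 by 4.0 (SE 0.32, adjusted p = 2e-06), Cyp2j5 and Ephx2, the soluble epoxide hydrolase that opens fatty acid epoxides. The calls of Cyp2j5 and Ephx2 were lost without 5C A, 5C B or 5C-E B, or with GC content and length in the fit, or with limma (-0.99 and -0.94). Fabp1 rose in 5C-F, beside 2.69% of all genes (1.16, SE 0.27, adjusted p = 0.0142), a call lost without 5C B or 5C-F B, or with GC content and length in the fit (0.82).

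Of 12 tested genes of bile acid synthesis, 3 rose in 5C against DMSO, beside 1.66% of all genes, Cyp7b1 (1.64, SE 0.29, adjusted p = 0.00124), Baat, which conjugates bile acids (1.29, SE 0.28, adjusted p = 0.00804), and Akr1d1, a bile acid reductase (1.49, SE 0.42, adjusted p = 0.0425). Akr1d1 lost its call without any 1 of the 4 libraries, and Baat without DMSO A or 5C B. Against 5C, 2 fell in 5C-E (1.31% of all genes), 4 in 5C-C (10.5%), 5 in 5C-G (5.64%) and 1 in 5C-F (2.15%), Akr1d1, which lost its call without 5C A, 5C B or 5C-F B. In 5C-G, Cyp7b1 (-1.08) lost its call without 5C A or 5C-G B, with limma (-0.93) and with GC content and length in the fit (-0.13), and Baat without 5C B. Cyp39a1 lost its 5C-C call without 5C-C B or with GC content and length (-0.65), and Cyp27a1 its 5C-E call with limma. Slc27a5, a bile acid CoA ligase, fell by 1.89 (SE 0.23, adjusted p = 0.000123) in 5C-E, fell by 1.84 (SE 0.23, adjusted p = 4.34e-05) in 5C-C and fell by 1.62 (SE 0.23, adjusted p = 0.000112) in 5C-G. Cyp7a1, the rate-limiting enzyme of the classical route, had 36 and 35 counts in 5C, 28 and 2 in DMSO and 0 in all libraries of 5C-C and 5C-E. It was called lower in 5C-C, but not without 5C-C B or with limma, and was not called in 5C-E.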

How the data were processed

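Groups came from the sample labels. The columns of the deposited tables name a group and a running number that matches no label, so the libraries of a group are called A and B and are not known to be paired. The authors mapped 150-base paired reads to GRCm39, and deposited whole-number counts per gene, and FPKM, which equal the count divided by 1 length per gene and by the column total, within 0.2%, for 27140 of 27141 genes. The processing notes name Subread, featureCounts and DESeq2. Annotation release and strand handling are not given in the sources used here. Of counts from 1 to 20, 71.3% were even (11657 entries of 2 and 6094 of 1), so single reads rather than fragments appear to have been counted. All sample columns were used (0 left out).

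The counts were fitted with edgeR 4.0.16 in R 4.3.3 (TMM, filterByExpr by group with a minimum count of 10, quasi-likelihood test), with all 13 libraries in 1 fit of group means, 19884 genes, 6 residual degrees of freedom and a common dispersion equal to a biological coefficient of variation of 0.261. DESeq, named in the methods of the study, was replaced by this test. Genes counted as called had an adjusted p (Benjamini-Hochberg) under 0.05 and a log2 fold change beyond 1. The study describes its replicates as biological, without saying for these libraries whether they came from separate animals or cultures, so p-values measure the spread between these libraries, which may be technical. No pair of libraries agreed within sampling noise (chi-square per degree of freedom 8.3 to 93.8). For 5C-S and for likeness, log2 CPM with a prior count of 2 was used. A gene at 0 in both libraries of a group was set to 3 counts per library, a floor that takes each count as independent and covers counting error only. That floor is too low if both reads of a fragment were counted. The script was tested on simulated data.

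The 7 genes, the pathway and marker lists and the tests were chosen with earlier results of these data known. Cyp2c29, Cyp2c37 and Cyp2c70 are also shown by the study. All 7 genes are named, list genes are given by counts with up to 4 examples, and likeness is Pearson's r over the 13 libraries. Some genes that these rules would name are not reported here. Annotation and sequence were taken from GENCODE and the GRCm39 genome, alignments from Biopython. Alternatives were total counts only, DESeq2 1.42.0, every gene with any count, limma 3.58.1 on log2(FPKM + 1), the compared libraries only, each library left out and, added after seeing the data, GC content and length as an offset, the running number as a block and canonical transcript lengths.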

Additional observations from a re-analysis of the deposited data

How the results depend on the processing

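Among the 7 genes, no call changed sign under any alternative. With libraries kept, the block included, 17 calls were lost and 14 gained over 441 values. Of these values 3 could not be given because the gene was not tested with the compared libraries only, and 2 of the lost calls are among them. With each library left out in turn, 24 of 252 values lost and 3 gained a call. Where a group is left with 1 library, that library is assumed to vary like the other groups. The number of Cyp2c genes called with 1 library left out ran from 3 to 4 for 5C against DMSO, and against 5C from 6 to 7 for 5C-G, 6 to 7 for 5C-C, 5 to 6 for 5C-E and 0 to 3 for 5C-F. Against DMSO it ran from 1 to 3 for 5C-G, 5 to 6 for 5C-C, 2 to 3 for 5C-E and 4 to 5 for 5C-F. The 5C-S differences past 1 numbered 2 to 3 against 5C and 5 to 6 against DMSO. Pathway genes called, 8, 17, 13, 7 and 3 in the 5 comparisons, ran from 5 to 7 for 5C against DMSO, and from 12 to 20 for 5C-G, 11 to 14 for 5C-C, 4 to 8 for 5C-E and 0 to 5 for 5C-F against 5C.

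With limma on log2(FPKM + 1), which understates low genes, pathway calls were 11 for 5C-G and 4 for 5C-E against 5C, and Cyp2c calls against DMSO were 1 for 5C-G and 2 for 5C-C. With the compared libraries only, 5 Cyp2c genes were called for 5C-F against 5C and 1 for 5C-G against DMSO. With the GC content and length offset 1 was called for 5C-F against 5C. The number of all genes called also moved with that offset, so the shares of all genes are not fixed. It went from 4011 to 2008 for 5C-C and from 2607 to 1789 for 5C-G against 5C, and from 905 to 934 for 5C against DMSO. Canonical transcript lengths put the mean share of Cyp2c29 at 7.24% in DMSO and 81.6% in 5C, against 4.52% and 73.4%. The cause was not tested. The labels give no shared replicate number, and the deviations of libraries with the same running number in the columns correlated by -0.03 to 0.1 over the 15 pairs of groups, so pairing is not established. With that number as a replicate block, 5 Cyp2c genes were called for 5C against DMSO (Cyp2c38 gained) and 4 for 5C-E against DMSO (Cyp2c54 gained), and the other 7 comparisons kept the same Cyp2c genes called. DESeq2 and the fit of every gene changed no count by over 1.5 times. Depth limits Cyp2c39, with at most 45 counts in any library, and Cyp2c54, with at most 11 outside 5C, 5C-F and 5C-S.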
